A study of Mus musculus with 4 samples.

Results

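A set of 10 genes of glucose uptake and glycolysis was followed through the atrioventricular canal and mitral valve of the mouse embryo and newborn. They are the transporters Slc2a1 and Slc2a3, the enzymes Hk2, Pfkl, Aldoa, Tpi1, Pgk1, Eno1 and Pkm, and Ldha, which turns pyruvate into lactate. They were taken by symbol, 10 of the 27998 genes in the table, and all 10 were present in the 4 libraries. The measurements are droplet single-cell 3' RNA counts from C57BL/6 mice in which Tie2-Cre switches on a tdTomato reporter at Rosa26, so that every group carries both alleles. Tomato-positive cells were sorted from the atrioventricular canal at embryonic day 9.5 (E9.5, 1 library), from E16.5 mitral valves (1 library) and from valves of newborns (P0, 2 libraries), and each stage pooled at least 60 embryos. Tie2-Cre is active in endothelial cells and blood precursors and in cells derived from them, which limits what the sort should contain, and no row of the table counts the reporter, which leaves the sort without a check. The dissected region differs between E9.5 and the later stages.

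Glucose enters most embryonic cells through the facilitative carriers GLUT1 (Slc2a1) and GLUT3 (Slc2a3), is trapped by hexokinase, committed to glycolysis by phosphofructokinase and split into trioses that yield ATP and pyruvate. Lactate dehydrogenase regenerates the NAD+ that keeps the pathway running without oxygen. The early embryonic heart is known for its reliance on glycolysis, with fatty acid oxidation taking over around birth, and several of these genes are known targets of the hypoxia-inducible factors.

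The genes lie on 6 chromosomes of GRCm38 (mm10), by the GENCODE annotation, and their counts come from 3' tags of the transcripts. Slc2a1 (ENSMUSG00000028645) spans chr4:119108711-119137983 on the plus strand and Slc2a3 (ENSMUSG00000003153) chr6:122727809-122801640 on the minus strand. Hk2 (ENSMUSG00000000628), a hexokinase, lies at chr6:82725025-82774454 on the minus strand, and Pfkl (ENSMUSG00000020277), the liver-type phosphofructokinase, at chr10:77986947-78010083 on the minus strand. Aldoa (ENSMUSG00000030695), the aldolase that splits fructose bisphosphate, lies at chr7:126795234-126800751 on the minus strand, and Tpi1 (ENSMUSG00000023456), which interconverts the trioses, at chr6:124810586-124814296 on the minus strand. Pgk1 (ENSMUSG00000062070), which makes the first ATP of the pathway, is on the X chromosome at 106187100-106203699, plus strand. Eno1 (ENSMUSG00000063524), an enolase, lies at chr4:150236721-150248879, Pkm (ENSMUSG00000032294), the muscle-type pyruvate kinase, at chr9:59656368-59679375, and Ldha (ENSMUSG00000063229) at chr7:46841475-46855627, all on the plus strand. Of the 57-nt words in the last 400 nt of Eno1, 81.4% also occur in the protein-coding gene Eno1b, so reads may be split between them and the Eno1 values are uncertain. Eno1b itself had 0.576 UMIs per 10000 in canal-type cardiomyocytes at E9.5, against 14.4 for Eno1.

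Because hypoxia-inducible factors are known to bind the core ACGTG, the RefSeq promoters (GRCm38.p6, 250 bases before to 50 after a start, 300 in all) of the genes were searched for it on both strands. Promoters were listed for 9 of the 10 genes. The core was in 7 of 15 listed promoters of these genes (46.7%), against 6447 of 32851 promoters of all genes (19.6%), and at least 2 matches were in 4 of them (26.7%), against 8.21% of all. The 15 are not separate stretches, since the Aldoa promoters with the core overlap and share 1 match, and some Eno1 promoters overlap. A single E-box CACGTG counts as 2 matches. Of all genes, 2698 promoters had at least 2 matches and 2349 held an E-box. Of the 4 promoters here, only that of Ldha holds one, so these shares count unlike things. It was found in a promoter of Slc2a1, Hk2, Aldoa, Pgk1, Pkm and Ldha, and its letters are not in the listed windows of Pfkl, Tpi1 and Eno1. A match describes the letters and is no evidence of binding. A selection of 5 promoters with a match in the 250 bases before the start are shown because they show how the core is placed in a carrier, in enzymes at the start and middle of the pathway and in Ldha. Each runs 5′ to 3′ on the strand of its gene, and capitals mark the core on either strand.
Ldha: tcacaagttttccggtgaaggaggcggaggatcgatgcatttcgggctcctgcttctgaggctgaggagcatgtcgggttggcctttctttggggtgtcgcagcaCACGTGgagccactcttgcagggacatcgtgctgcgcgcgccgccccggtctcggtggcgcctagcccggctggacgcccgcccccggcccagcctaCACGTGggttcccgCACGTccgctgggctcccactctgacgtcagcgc
Slc2a1: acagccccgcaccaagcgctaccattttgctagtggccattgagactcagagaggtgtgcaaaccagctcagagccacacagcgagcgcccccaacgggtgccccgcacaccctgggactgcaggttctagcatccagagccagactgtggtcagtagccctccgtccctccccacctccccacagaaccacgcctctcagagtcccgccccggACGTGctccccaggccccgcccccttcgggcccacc
Hk2: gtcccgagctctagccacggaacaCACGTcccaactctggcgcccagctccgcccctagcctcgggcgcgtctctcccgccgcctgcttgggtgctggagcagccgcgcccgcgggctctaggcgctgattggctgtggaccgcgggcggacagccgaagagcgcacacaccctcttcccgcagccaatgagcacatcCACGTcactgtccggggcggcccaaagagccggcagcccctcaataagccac
Pgk1: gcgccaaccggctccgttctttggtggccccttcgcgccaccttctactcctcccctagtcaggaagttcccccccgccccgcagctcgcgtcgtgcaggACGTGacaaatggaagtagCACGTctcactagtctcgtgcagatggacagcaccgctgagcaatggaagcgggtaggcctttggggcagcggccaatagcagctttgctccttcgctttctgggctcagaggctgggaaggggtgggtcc
Aldoa: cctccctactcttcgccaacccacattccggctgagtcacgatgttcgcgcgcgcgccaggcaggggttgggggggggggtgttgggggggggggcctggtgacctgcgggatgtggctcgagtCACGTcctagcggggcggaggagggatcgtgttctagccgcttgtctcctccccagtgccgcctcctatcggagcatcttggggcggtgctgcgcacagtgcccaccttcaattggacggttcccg
The Ldha sequence is chr7:46845554-46845803, and its 5 matches fall in 3 places, since the E-box CACGTG, present in 7.15% of all promoters, reads as the core on both strands and occurs 2 times there. The Slc2a1 sequence is chr4:119108495-119108744 with 1 match, the Hk2 sequence chr6:82774455-82774704 (minus strand) with 2, the Pgk1 sequence chrX:106186850-106187099 with 2, and the Aldoa sequence chr7:126799255-126799504 (minus strand) with 1.

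The libraries differ in depth. The E9.5 library kept 1194 cells with a median of 24621 UMIs (unique molecules) per cell, the E16.5 library 311 cells with 2357, and the P0 pair 282 and 173 cells with 5159.5 and 4432. The deposited totals were 30819374, 1021188, 1836768 and 1086623 UMIs in the same order. Ribosomal protein transcripts took 1549, 3271, 2354 and 2382 of every 10000 UMIs, and the nuclear RNA Malat1 took 21.1, 6.63, 344 and 334. The part of these differences in the stage results below was not tested. Classes are clusters named from marker genes, with the 10 genes and their pathway lists left out of the clustering, so each class name below means cells like that type. At E9.5, 491 of the 1194 kept cells were cardiomyocyte-like although the sort selects Tie2-Cre descendants, and 97 cells were left unnamed. The cushion-forming class had 9 of 11 cushion markers and also 10 of 13 endothelial markers. Interstitial clusters of the valve had 6 to 8 of 11 interstitial markers, and surface endothelial clusters 8 to 10 of 13 endothelial markers. Unnamed cells made up 11.9% of the kept cells at E16.5 and 24.8% and 17.3% at P0. Levels are UMIs per 10000 UMIs summed over the cells of a class; 95% intervals are exact Poisson intervals and cover counting error only.

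At E9.5 the 10 genes together took the most UMIs in cardiomyocytes and the fewest in erythroid cells. Canal-type cardiomyocytes (220 cells) had 156 per 10000 (155 to 157), chamber-type cardiomyocytes (83 cells) 137, cardiomyocytes without a subtype (136 cells) 137 and ventricular-type cardiomyocytes (52 cells) 123. Pharyngeal-type mesenchyme had 117, posterior heart field mesoderm 114, (pro)epicardial cells 113 and epithelial cells 109. Endocardial cells (88 cells) had 78.3, macrophages 68.4, cushion-forming cells (103 cells) 53.2 and erythroid cells (243 cells) 32.6. All kept cells of the library together had 94.9. With globin genes left out of the totals the erythroid value was 52.9, next to that of the cushion-forming cells. Among single cells the spread was wide within a class, with quartiles of 132 and 177 in canal-type cardiomyocytes, 53.3 and 82.3 in endocardial cells and 41.6 and 59.5 in cushion-forming cells.

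**Figure D1:**
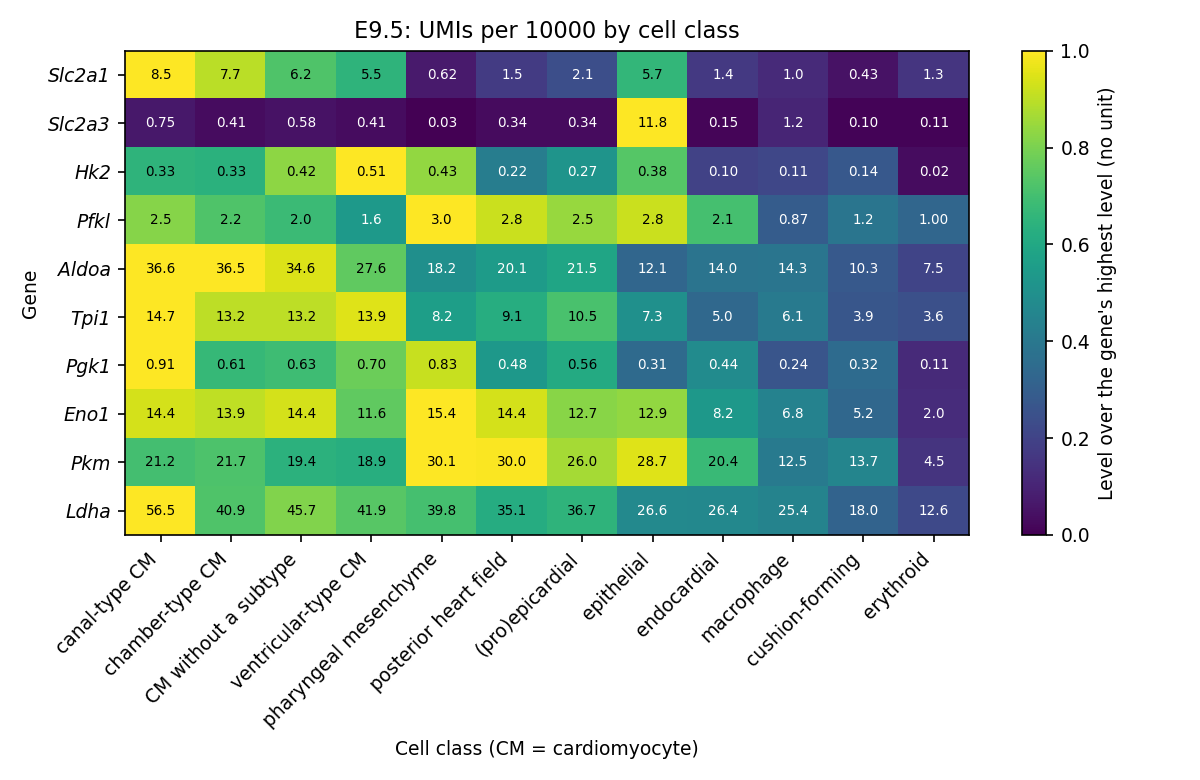
Levels of the 10 genes in the 12 named cell classes at E9.5, written in each cell as UMIs per 10000 and coloured relative to the gene's own highest class. Ldha and Aldoa stand highest in the cardiomyocyte classes, Pkm in pharyngeal-type mesenchyme and posterior heart field mesoderm, and Slc2a3 in the epithelial class at 11.8.

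Slc2a1, the widespread GLUT1 carrier, was highest in cardiomyocytes and lowest in cushion-forming cells. It had 8.53 UMIs per 10000 in canal-type, 7.65 in chamber-type, 6.17 in subtype-less and 5.54 in ventricular-type cardiomyocytes, 5.65 in epithelial cells and 2.06 in (pro)epicardial cells. It had 1.49 in posterior heart field mesoderm, 1.41 in endocardial cells, 1.31 in erythroid cells, 1.00 in macrophages, 0.616 in pharyngeal-type mesenchyme and 0.429 in cushion-forming cells. The highest class thus stood 19.9-fold above the lowest. The counting intervals of neighbours overlapped from the subtype-less cardiomyocytes down to the ventricular-type ones and again from posterior heart field mesoderm down to cushion-forming cells, so the order of neighbours there is not set by these counts, although the ends of the second stretch do not overlap. After each cell was thinned to 5000 UMIs, 92.7% of canal-type cardiomyocytes had a Slc2a1 UMI, against 40.9% of endocardial, 40.7% of erythroid and 14.6% of cushion-forming cells.

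Slc2a3, the high-affinity GLUT3 carrier, followed another order. The 24 epithelial cells had 11.8 UMIs per 10000 (10.9 to 12.8), and macrophages came next with 1.22. Canal-type cardiomyocytes had 0.753, subtype-less cardiomyocytes 0.575, ventricular-type 0.411 and chamber-type 0.408, and the mesodermal and epicardial classes 0.340 and 0.338. Endocardial cells had 0.153, erythroid cells 0.109, cushion-forming cells 0.0974 and pharyngeal-type mesenchyme 0.0287. After thinning, 24 of 24 epithelial cells had a Slc2a3 UMI, against 46.2% of macrophages, 29.5% of canal-type cardiomyocytes and 6.58% of erythroid cells. Slc2a3 made up 10.9% of the 10 genes' UMIs in epithelial cells.

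**Figure D2:**
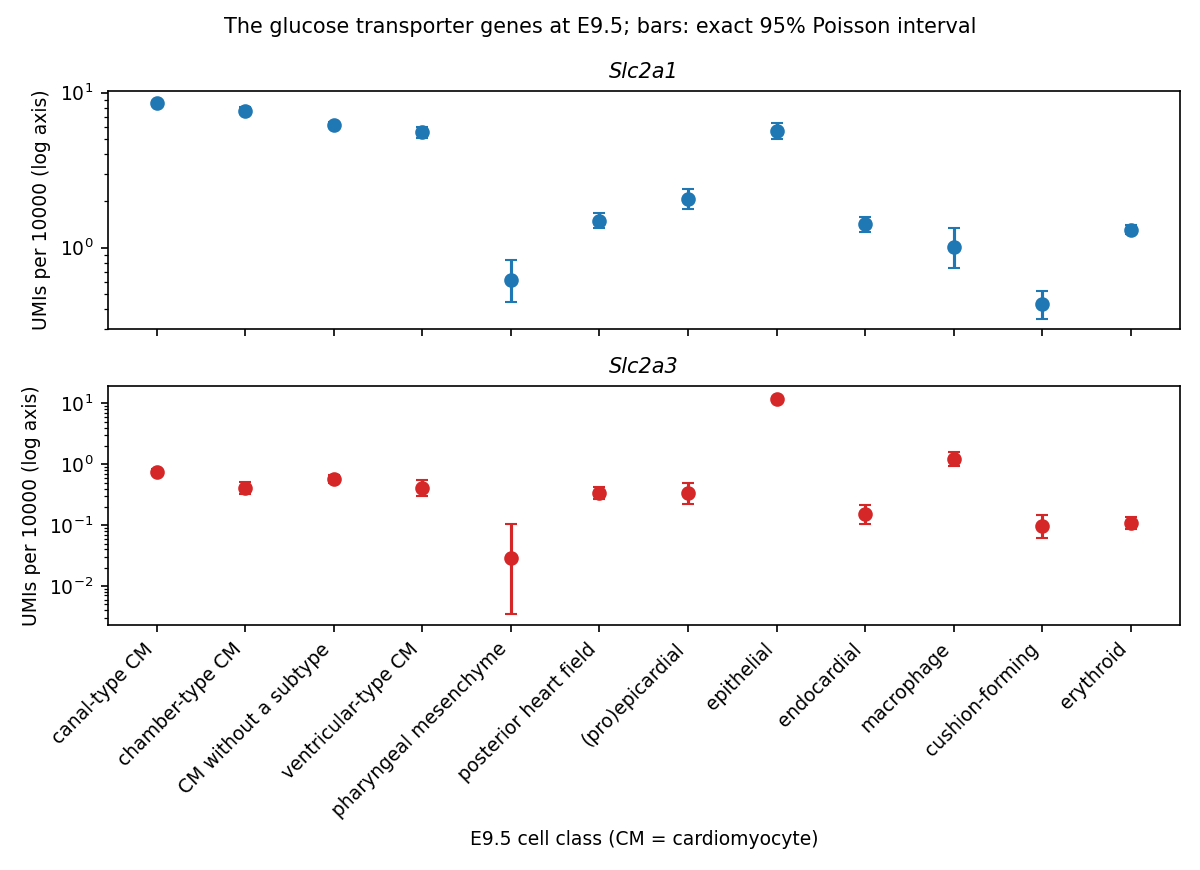
Levels of the carriers Slc2a1 and Slc2a3 in the 12 E9.5 classes, in UMIs per 10000 on log axes with exact 95% Poisson intervals. Slc2a1 is high in the 4 cardiomyocyte classes (5.54 to 8.53) and in epithelial cells, while Slc2a3 reaches 11.8 in epithelial cells and at most 1.22 elsewhere.

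Of the upper enzymes, Aldoa was highest in cardiomyocytes, Pfkl in mesenchyme, and Hk2 in ventricular-type cardiomyocytes followed by pharyngeal-type mesenchyme. For Hk2 the counting intervals of neighbours overlapped from the top class down to endocardial cells. For Pfkl they overlapped from the top class down to subtype-less cardiomyocytes, with epithelial cells at 2.76. The order of neighbours in these stretches is thus not set by the counts. Hk2, which traps glucose as glucose 6-phosphate, had 0.512 in ventricular-type cardiomyocytes, 0.430 in pharyngeal-type mesenchyme, 0.424 in subtype-less cardiomyocytes, 0.377 in epithelial cells, 0.332 in canal-type and 0.326 in chamber-type cardiomyocytes, 0.142 in cushion-forming, 0.10 in endocardial and 0.0163 in erythroid cells. Pfkl, a subunit of the committing enzyme, was flatter, with 3.01 in pharyngeal-type mesenchyme, 2.77 in posterior heart field mesoderm, 2.46 in canal-type cardiomyocytes, 2.12 in endocardial cells, 1.16 in cushion-forming cells and 0.871 in macrophages. Aldoa had 36.6 in canal-type and 36.5 in chamber-type cardiomyocytes, 27.6 in ventricular-type ones, 14.0 in endocardial, 10.3 in cushion-forming and 7.46 in erythroid cells. Erythroid cells were the lowest class for Hk2 and Aldoa, and macrophages for Pfkl.

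Among the later enzymes, Tpi1 had 14.7 in canal-type cardiomyocytes, 4.96 in endocardial, 3.94 in cushion-forming and 3.61 in erythroid cells, and Pgk1 had 0.908, 0.440, 0.319 and 0.109 in the same classes. Eno1 had 15.4 in pharyngeal-type mesenchyme, 14.4 in canal-type cardiomyocytes and in posterior heart field mesoderm, 8.21 in endocardial, 5.17 in cushion-forming and 1.97 in erythroid cells. Pkm, whose product is pyruvate, had 30.1 in pharyngeal-type mesenchyme, 30.0 in posterior heart field mesoderm and 28.7 in epithelial cells. These levels of Pkm stood above the 21.2 of canal-type cardiomyocytes, the 20.4 of endocardial cells, the 13.7 of cushion-forming cells and the 4.51 of erythroid cells. Ldha had 56.5 in canal-type cardiomyocytes, 45.7, 41.9 and 40.9 in the subtype-less, ventricular-type and chamber-type ones, 26.4 in endocardial, 18.0 in cushion-forming and 12.6 in erythroid cells.

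All cardiomyocyte-like cells together were set against all other cells of the library, without a test because there is 1 library. The other cells include the 243 erythroid cells, the class with the lowest sum, which hold 7955991 of the 30533053 kept UMIs. Erythroid cells thus lower the level of the other cells, and ratios without them were not taken. Single classes can stand closer, as for Eno1 with 15.4 in pharyngeal-type mesenchyme and 14.4 in posterior heart field mesoderm. Of the 10 genes, 7 were at least 2-fold higher in cardiomyocytes, where 18.0% of all genes compared were, and none was 2-fold lower, where 12.7% were; the median ratio was 2.40, against 1.09 over all genes. Slc2a1 had 7.42 in cardiomyocytes, against 1.46 in the other cells, a ratio of 5.09 (95% counting interval 4.88 to 5.32). Hk2 had 0.375 against 0.127, Aldoa 35.1 against 12.2, Tpi1 13.9 against 5.49 and Pgk1 0.758 against 0.301. Eno1 had 14.1 against 6.76 and Ldha 49.5 against 21.6. The enzymes Pfkl and Pkm, with ratios of 1.36 and 1.38, and Slc2a3, with 1.18, stayed under 2-fold.

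Within the cardiomyocytes the differences were smaller. Canal-type cells had 4 genes at least 2-fold above all other cells, where 13.4% of genes were higher and 10.1% lower, namely Slc2a1, Pgk1, Ldha and Aldoa with ratios of 3.15, 2.36, 2.09 and 2.08. Chamber-type cells had 1, Slc2a1 at 2.22, where 7.79% of genes were higher and 9.53% lower. The ventricular-type cells had 1, Hk2 at 2.44, where 6.91% were higher and 9.28% lower, and the subtype-less cells had 1, Hk2 at 2.17, where 6.2% were higher and 9.05% lower. These subtype counts depend on the setting: the canal-type count was 0 when pathway genes were kept in the clustering or the resolution was 1.5, and 2 without globin in the totals. Set against each other, canal-type cells had Ldha 1.38-fold (1.35 to 1.42) and Slc2a3 1.85-fold the chamber-type level, while Aldoa had a ratio of 1.00. No gene passed 2-fold between canal-type and chamber-type cells, where 5.96% of genes were higher and 3.48% lower, or between canal-type and ventricular-type cells, where 9.12% were higher and 4.01% lower. Of the pair of canal-type clusters, one had 9.06 Slc2a1 UMIs per 10000 and the other 5.99, with Ldha at 55.7 and 60.5.

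Endocardial and cushion-forming cells, the lineages that build the valve, were on the low side of all other cells. Those include the 491 cardiomyocyte-like cells, with 11514171 of the 30533053 kept UMIs, which raise their level. Ratios without cardiomyocytes were not taken. Endocardial Slc2a1, at 1.41, lay near the 1.49 of posterior heart field mesoderm and the 1.31 of erythroid cells, while the cushion-forming level was the lowest of the 12 classes. In endocardial cells 3 of the 10 genes were at least 2-fold below all other cells, where 10.7% of genes were, and none was higher, where 13.0% were, with Slc2a3 3.82-fold, Slc2a1 2.75-fold and Hk2 2.28-fold lower. In cushion-forming cells 4 were lower, where 10.2% of genes were, and none higher, where 12.9% were. Slc2a1 had 0.429 in cushion-forming cells, against 3.96 in the other cells, 9.23-fold lower, and Slc2a3, Tpi1 and Aldoa were 6.07-fold, 2.30-fold and 2.11-fold lower. The median ratio of the 10 genes was 0.735 in endocardial and 0.533 in cushion-forming cells, against 1.16 and 1.18 over all genes. Cushion-forming cells, which arise from endocardium by an epithelial-to-mesenchymal transition, were then set against endocardial cells. Slc2a1 had 0.429 in cushion-forming and 1.41 in endocardial cells, a ratio of 0.305 (0.240 to 0.384), and was the 1 gene past 2-fold, where 6.23% of genes were lower and 6.4% higher. The ratios of Pfkl (0.549), Eno1 (0.63), Pkm (0.67), Ldha (0.681), Pgk1 (0.725), Aldoa (0.731) and Tpi1 (0.793) had intervals wholly under 1, that of Slc2a3 (0.637) reached 1.13, and Hk2 had a ratio of 1.41 with an interval of 0.789 to 2.58. The median over the 10 genes was 0.675, against 1.00 over all genes.

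In erythroid cells 10 of the 10 genes were at least 2-fold below all other cells, in a class where 58.4% of all genes were lower and 3.45% higher and where globin took 3827 of 10000 UMIs. The median ratio was 0.249, against 0.410 over all genes. Hk2 was 17.9-fold lower, Slc2a3 6.51-fold, Eno1 6.20-fold, Pgk1 5.50-fold and Pfkl 2.16-fold. With globin genes left out of the totals, 7 of the 10 were lower, where 39.0% of genes were; Hk2 was then 11.1-fold, Slc2a3 4.05-fold, Eno1 3.85-fold and Pgk1 3.42-fold lower, while Ldha, Tpi1 and Pfkl, at 1.93-fold, 1.80-fold and 1.34-fold lower, stayed under 2-fold. RNA free in the droplets can give UMIs in cells that do not make a transcript. Cardiomyocyte markers, which erythroid cells should lack, stood in them at 2.57% to 12.7% of the library-wide level (median 6.04%), and Hk2 at 7.41% lies within that range. Slc2a1 at 35.3%, Ldha at 39.1% and Pfkl at 53.8% lay above it. In cushion-forming cells 10 of the 11 cardiomyocyte markers stood at 2.06% to 10.2% of the library-wide level and Tnni1 at 25.8%. Tnni1 itself had 4.28 UMIs per 10000 there, against 1.74 in endocardial and 1.34 in erythroid cells. Slc2a1, at 11.6%, and Slc2a3, at 17.6%, lay above those 10 markers and below Tnni1. The part of free RNA in their low values there was not tested. The other 8 genes stood at 45.4% or more. In endocardial cells the markers reached at most 10.5%, and the lowest of the 10 genes was Slc2a3 at 27.6%. The erythroid clusters had similar sums of 33.2, 33.8 and 32.0.

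The remaining classes differed mainly in their carriers. Epithelial cells had 1 gene at least 2-fold higher, where 16.2% of genes were, and none lower, where 7.97% were. Slc2a3 had 11.8 in them, against 0.376 in the other cells, a ratio of 31.4 (28.3 to 34.8). It is also among the leading genes of that cluster. Macrophages had Slc2a3 2.24-fold higher, where 15.6% of genes were higher, and Slc2a1, Hk2 and Pfkl lower, where 13.5% were lower; the Hk2 ratio of 0.490 rests on 5 UMIs and its counting interval, 0.159 to 1.15, includes 1. Pharyngeal-type mesenchyme had 2 genes lower, both carriers, where 14.2% of genes were lower and 12.1% higher, and posterior heart field mesoderm had 1, Slc2a1 at 1.49 against 3.86, where 6.74% were lower and 8.33% higher. (Pro)epicardial cells had no gene past 2-fold in either direction, where 10.7% of genes were higher and 7.73% lower.

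The 10 genes did not form a single pattern across the 12 classes. As a description over these 12 points, which share 1 library, the log2 levels of Aldoa and Tpi1 had a Pearson r of 0.95, Aldoa and Ldha 0.94, Eno1 and Pkm 0.94 and Pgk1 and Ldha 0.93. Slc2a1 and Pkm had 0.26, and Slc2a3 had between -0.10 and 0.55 with the others. Among 2810 genes outside the pathway lists with at least 1 UMI per 10000 in a class, those whose levels were most like the sum of the 10 included Got1 (r = 0.923), Vbp1 (0.917), Prelid2 (0.917) and Bri3 (0.907). Got1 encodes the cytosolic aspartate aminotransferase of the malate-aspartate shuttle.

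Other glycolysis genes were also higher in E9.5 cardiomyocytes. Of the other glycolysis enzymes, 10 of 11 were at least 2-fold higher in cardiomyocytes than in the other cells and none lower (median ratio 3.84). Pfkp, the platelet-type phosphofructokinase, had 1.58 against 0.149, the muscle enolase Eno3 6.47 against 0.748, and Aldoc and Hk1 ratios of 9.11 and 5.28. Of the genes of lactate and pyruvate handling, 7 of 13 were higher and none lower, among them the lactate exporter Slc16a3 at 3.96 against 1.31, and Pdk3 and Pdk1, kinases that hold back pyruvate oxidation, with ratios of 3.23 and 3.01. Of 3 other glucose carriers compared, Slc2a4 (ratio 3.52) and Slc2a8 (2.04) were higher. Those counts read against the same 18.0% of all genes higher and 12.7% lower, with erythroid cells again among the other cells.

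The oxygen-sensing genes were mixed. Hif1a, which encodes the regulated hypoxia-inducible factor subunit, had 1.41 in cardiomyocytes, against 0.50 in the other cells, and Egln1, a prolyl hydroxylase that marks it for destruction, a ratio of 3.32, while Egln3 and Hif3a were lower (2 of 9 higher and 2 lower). Of hypoxia-induced genes outside glycolysis, 6 of 16 were higher and 2 lower, with Bnip3 at 4.37 against 0.871, and Vegfa, Adm and Fam162a at ratios of 4.53, 4.39 and 2.43. Of the glycolysis regulators 1 of 8 was higher and 4 lower: Tigar had a ratio of 3.08, Myc 0.0498, Bpgm 0.232 and Pfkfb4 0.295. The pentose phosphate pathway had 0 of 7 higher and 3 lower (Tkt 0.209, Rpia 0.286, G6pdx 0.488). The citric acid cycle had 6 of 12 higher, among them Idh3a at 3.65, and 0 lower, and fatty acid uptake and oxidation 7 of 10 higher and 0 lower (Fabp3 17.3, Ppargc1a 11.3).

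Glycolysis enzymes outside the set were lower in the valve lineages and in blood than in all other cells. In these comparisons the other cells include the cardiomyocyte-like cells, in which most of these enzymes, Eno3 among them, were higher. Ratios without cardiomyocytes were not taken. With globin left out of the totals 39.0% of all genes were lower in erythroid cells, and no count of these enzymes is given for those totals. Of 10 other glycolysis enzymes compared, 5 were at least 2-fold lower in cushion-forming cells, 6 in endocardial cells and 9 in erythroid cells, and none was higher, against the 10.2%, 10.7% and 58.4% of all genes lower given above. Eno3 had 0.208 in cushion-forming cells, against 3.12 in the other cells. In endocardial cells Epas1 and Egln3, which belong to oxygen sensing, had ratios of 7.41 and 6.61. In erythroid cells Bpgm, which makes the 2,3-bisphosphoglycerate that loosens oxygen from haemoglobin, had 3.69 against 0.38, a ratio of 9.70.

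In the valve at E16.5 and P0 the summed level was lower in every class than in the E9.5 endocardial and cushion-forming cells. At E16.5 it was 14.8 in capillary or coronary endothelial cells (62 cells), 9.72 in surface endothelial cells (55 cells), 6.60 in interstitial cells (119 cells), 9.30 in macrophages (17 cells) and 7.18 in pericytes (11 cells). The 10 cardiomyocyte-like cells of that library had 30.7. In the P0 libraries it was 19.2 and 18.7 in capillary, 12.8 and 14.0 in surface endothelial, 10.8 and 14.0 in interstitial cells, and 14.5 and 28.4 in macrophages (62 and 43, 47 and 46, 74 and 42, and 29 and 12 cells). Capillary cells stood above surface endothelial and interstitial cells in all 3 valve libraries.

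**Figure D3:**
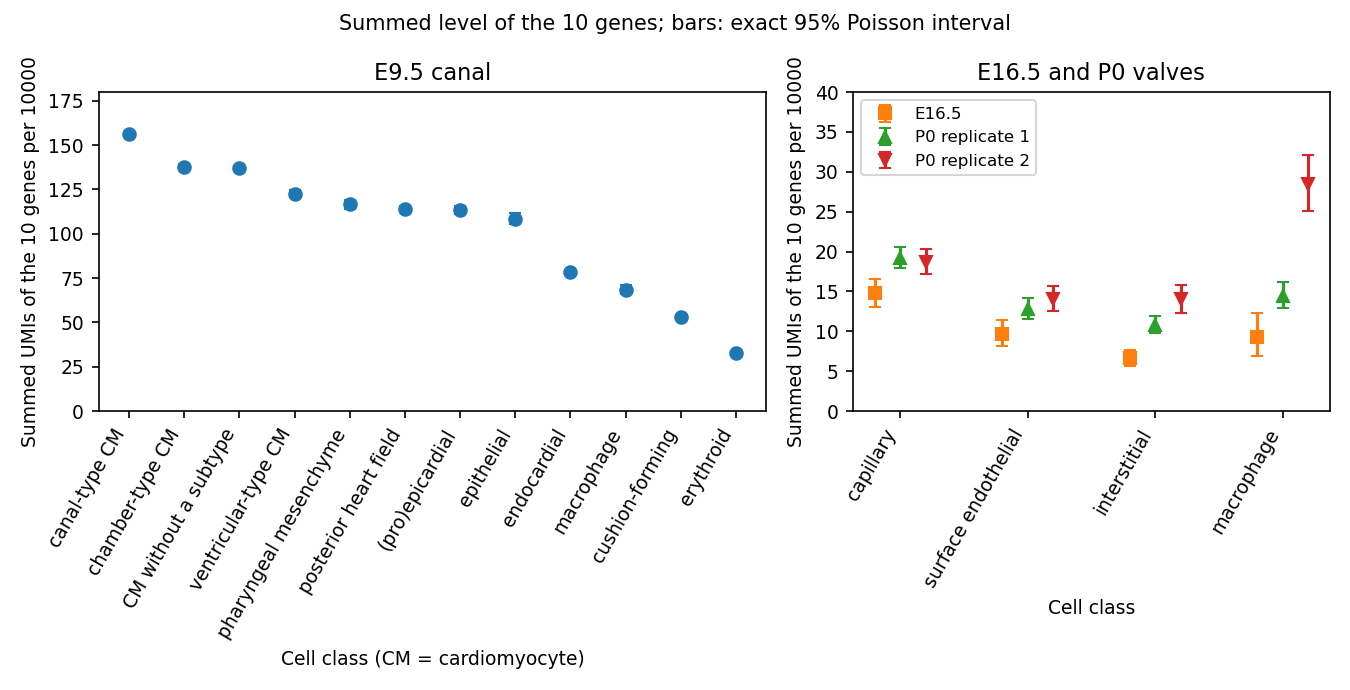
UMIs of the 10 genes summed, per 10000 UMIs, for the 12 E9.5 classes (left) and for the 4 classes named in every valve library (right, on a shorter axis), with exact 95% Poisson intervals. The E9.5 classes run between 32.6 and 156, and the valve classes between 6.60 and 28.4.

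Interstitial cells, the matrix-making fibroblast-like cells of the leaflet, were compared with the surface endothelium within each of the 3 valve libraries, by edgeR's quasi-likelihood test with the library as a block and Benjamini-Hochberg adjustment over 4140 genes. Of the 10 genes, 7 had enough UMIs to be tested, and Slc2a1, Slc2a3 and Hk2 did not. Pfkl had 0.0674 (2 UMIs), 0.156 and 0.107 per 10000 in interstitial cells of E16.5 and the P0 libraries, against 0.472, 0.863 and 0.439 in surface endothelial cells. The classes did not overlap, and Pfkl was lower in interstitial cells by 2.31 on the log2 scale (SE 0.57, adjusted p = 0.014). A gene could pass the count minimum of this fit through 1 class alone. Pfkl passed it through the surface endothelial cells, where it was high, and in no library through interstitial cells. Its call therefore describes the values only. It was the 1 gene of 7 called lower, where 7.66% of all genes were, and none was called higher, where 6.14% were. The call rests on few UMIs: it was lost without P0 replicate 2 (log2 fold change -2.41, adjusted p = 0.0542), and Pfkl could not be tested without P0 replicate 1 or when the interstitial clusters led by cell cycle genes were left out, where none of the 6 genes still tested was called. Pgk1 had a log2 fold change of -1.09 (adjusted p = 0.21), Aldoa -0.81 (0.23), Pkm -0.50, Ldha 0.32, Eno1 0.36 and Tpi1 0.63. The median of the 7 was -0.50, against 0.02 over all genes.

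Capillary or coronary endothelial cells had more Ldha, Pkm and Eno1 than the surface endothelium in each library, without passing the test, and Tpi1 and Pgk1 were mixed. Ldha had 3.38, 5.34 and 5.40 in capillary cells at E16.5 and in the P0 libraries, against 1.96, 2.69 and 3.38 in surface endothelial cells, each library having the capillary value above its own surface value. Its log2 fold change was 0.88 (SE 0.29, adjusted p = 0.093), and it was called in 3 of the alternatives, with adjusted p between 0.0288 and 0.0423. Pkm had 3.43, 4.03 and 3.88 against 2.29, 2.66 and 2.90 (log2 fold change 0.59), Eno1 1.92, 2.16 and 1.88 against 1.21, 1.23 and 1.05 (0.83), and Aldoa 4.89, 4.51 and 3.75 against 2.09, 3.35 and 3.95 (0.62). Aldoa overlapped between the classes while Pkm and Eno1 did not. Tpi1 had 0.884, 1.42 and 1.68 in capillary cells, against 1.21, 0.631 and 1.40 in surface endothelial cells (0.38), and Pgk1 0.0520, 1.11 and 1.59 against 0.405, 1.26 and 0.702 (0.08), so the E16.5 capillary value was the lower one for both. None of the 7 was called, where 2.87% of genes were higher and 3.6% lower, and 1 had an unadjusted p under 0.05; the median was 0.59, against 0.03 over all genes. Macrophages had no call either, where 3.96% of genes were higher and 1.52% lower, and 1 gene of 7 had an unadjusted p under 0.05; Eno1 had a log2 fold change of 1.27 against surface endothelial cells (adjusted p = 0.16). Hk2, at 0 to 0.235 in the other main P0 classes, had 0.259 and 0.646 in P0 macrophages, from 6 UMIs in each library.

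**Figure D4:**
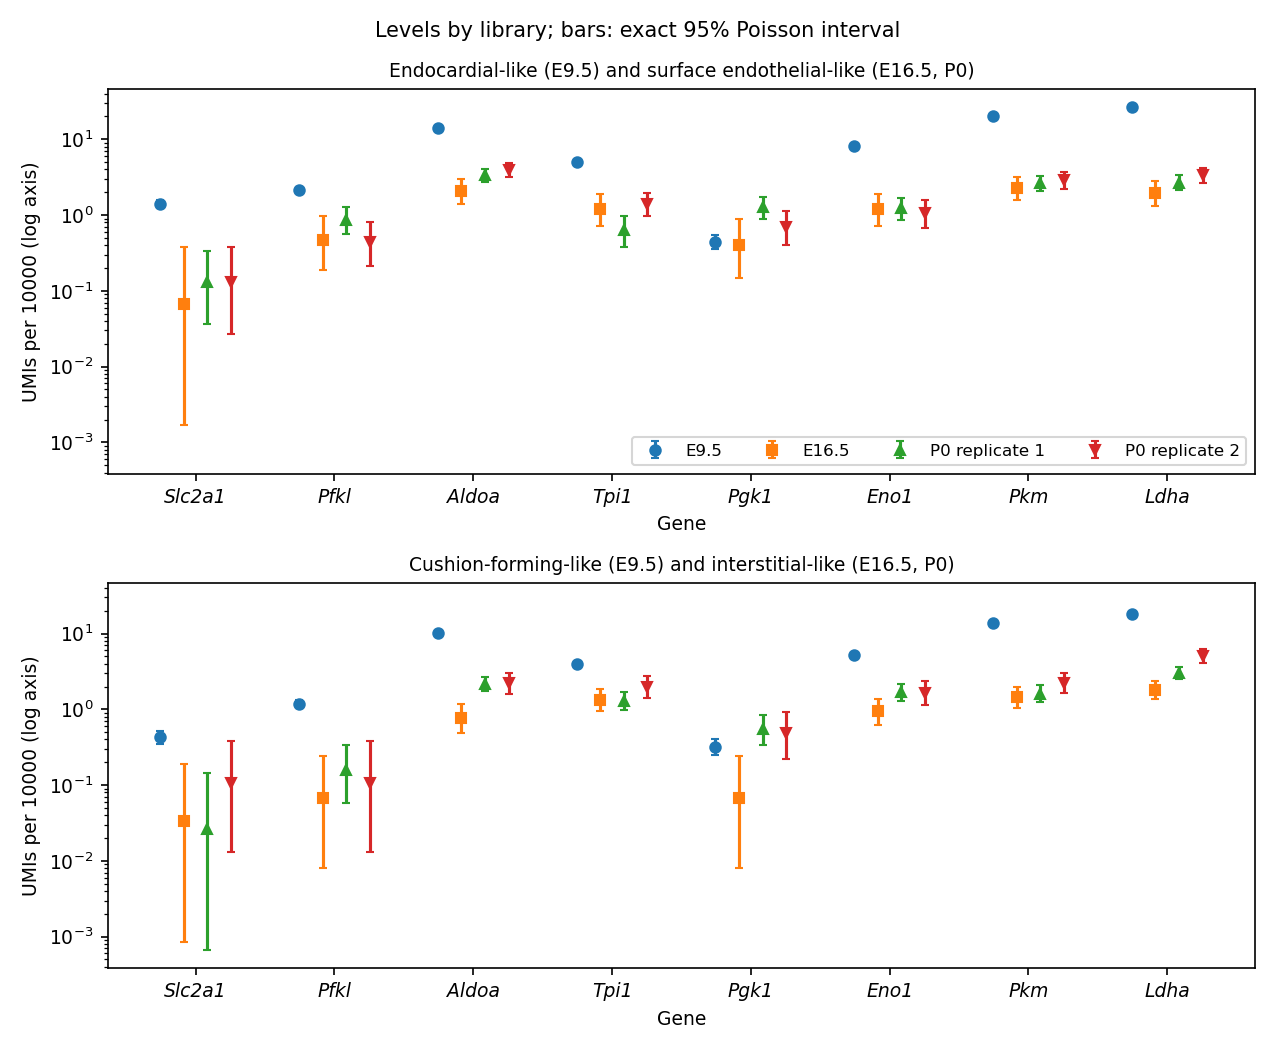
Levels of 8 genes in the endothelial classes (top) and the mesenchymal classes (bottom) of each library, in order of stage, as UMIs per 10000 on a log axis with exact 95% Poisson intervals. Ldha lies at 26.4 in E9.5 endocardial and 18.0 in E9.5 cushion-forming cells, and between 1.82 and 5.09 in the later classes drawn.

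Between E9.5 and P0 the nearest classes were compared, cushion-forming with interstitial cells and endocardial with surface endothelial cells. The spread in these fits comes from the P0 pair alone (1 residual degree of freedom), and the single E9.5 library is assumed to vary like them. Each gene's own spread had no weight in edgeR's fits (infinite prior degrees of freedom). The p-values therefore rest on a spread shared over genes and not on that of the gene itself. The spread between the P0 libraries may be technical because nothing in the labels ties them to separate litters. Of the 10 genes, 8 could be tested, and Slc2a3 and Hk2 could not. A gene could pass the count minimum of these fits through a single library. Slc2a1 in both pairs of classes, and Pfkl in cushion-forming against interstitial cells, passed it only through E9.5, where they were high. The counts of calls below include them, and their calls describe the values only. In cushion-forming cells 7 of 8 were called higher than in P0 interstitial cells, where 16.6% of all genes were, and none lower, where 19.9% were; the median log2 fold change was 1.90, against -0.02 over all genes.

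Ldha had 18.0 UMIs per 10000 in E9.5 cushion-forming cells, against 3.02 and 5.09 in P0 interstitial cells (log2 fold change 1.89, SE 0.23, adjusted p = 7.6e-15). Pkm had 13.7 in E9.5 cushion-forming cells, against 1.62 and 2.25 in P0 interstitial cells (2.56, adjusted p = 2.3e-22). Aldoa had 10.3, against 2.19 and 2.20 at P0 (1.92, adjusted p = 8.8e-13). For these 3 genes the E9.5 value lay above both P0 values by more than the gap between the P0 libraries. Pfkl had 1.16 at E9.5, against 0.156 and 0.107 at P0 (2.75), Eno1 5.17 against 1.69 and 1.66 (1.32) and Tpi1 3.94 against 1.30 and 1.98 (1.02), with adjusted p of 4.2e-07, 1.1e-05 and 0.0015. Pfkl and Slc2a1 passed the count minimum here only through E9.5, so their calls describe the values only. Slc2a1 had 0.429 at E9.5, against 0.0261 and 0.107 from 1 and 2 UMIs at P0 (2.68, SE 0.80). Its fold change was 1.62 without P0 replicate 1 and 3.75 without P0 replicate 2. Its E9.5 level, at 11.6% of the library-wide level, lay close above most cardiomyocyte markers in these cells and below the marker Tnni1. The part of free RNA in the call was not tested. Pgk1 differed in sign, with 0.319 at E9.5, against 0.547 and 0.482 at P0 (-1.01, adjusted p = 0.089). DESeq2's Wald test called 3 of the 8, Aldoa, Pkm and Ldha, and 4 were called when pathway genes were kept in the clustering.

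In E9.5 endocardial cells 7 of 8 genes were called higher than in P0 surface endothelial cells, where 24.6% of all genes were, and 1 was called lower, where 22.1% were. The median log2 fold change was 2.49, against -0.03 over all genes. Ldha had 26.4 at E9.5, against 2.69 and 3.38 at P0 (log2 fold change 3.03, SE 0.29, adjusted p = 3.3e-23). Pkm had 20.4, against 2.66 and 2.90 (2.79, adjusted p = 4.2e-20), and Eno1 8.21, against 1.23 and 1.05 (2.75, adjusted p = 5.6e-18). Each of these genes stood well above both P0 libraries. Tpi1 had 4.96, against 0.631 and 1.40 (2.24), Aldoa 14.0, against 3.35 and 3.95 (1.85), and Pfkl 2.12, against 0.863 and 0.439 (1.57), with adjusted p of 1.4e-11, 6.7e-10 and 2.1e-05. The Tpi1 fold change was 1.62 without P0 replicate 1 and 2.97 without P0 replicate 2. The carrier Slc2a1 had 1.41 at E9.5, against 0.133 and 0.132 at P0, from 4 and 3 UMIs (3.31). It passed the count minimum only through E9.5, where it was high, so its call describes the values only. Pgk1 went the other way and was lower at E9.5. It had 0.440 in E9.5 endocardial cells, against 1.26 and 0.702 in P0 surface endothelial cells (-1.28, SE 0.37, adjusted p = 0.0021). DESeq2's Wald test called 5 of the 8, Aldoa, Tpi1, Eno1, Pkm and Ldha, and neither Pgk1 (adjusted p = 0.626), Slc2a1 (0.148) nor Pfkl (0.385).

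**Figure D5:**
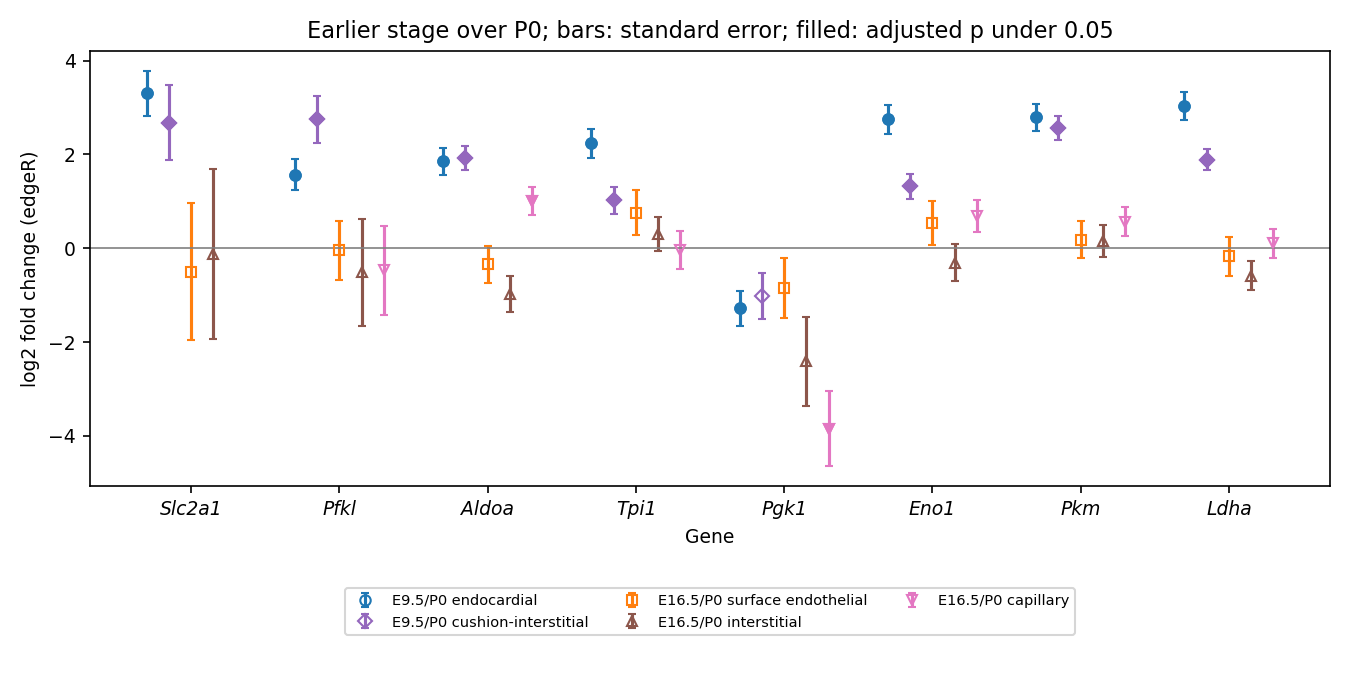
Log2 fold changes of the tested genes with standard errors, for E9.5 against P0 and E16.5 against P0 in matched classes, filled where the gene was called. At E9.5 every tested gene but Pgk1 lies above 0 in both pairs of classes, with Pgk1 at -1.01 and -1.28.

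The E9.5 excess over P0 differed between the lineages for 2 genes. In a joint fit with a class-by-stage term over 6914 genes (edgeR's quasi-likelihood test, 471 genes called), the E9.5-to-P0 difference was larger in endocardial than in cushion and interstitial cells by 1.32 for Eno1 (adjusted p = 0.0263) and by 1.03 for Ldha (adjusted p = 0.034), on the log2 scale. Tpi1 had 1.19 (adjusted p = 0.0636), Pfkl -1.37 (0.192) and Aldoa -0.16 (0.819). The same fit gave Pkm 0.13, Slc2a1 0.57 and Pgk1 -0.42.

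Between E16.5 and P0 no gene of the set was called in interstitial or surface endothelial cells. In interstitial cells none of 8 tested was called, where 11.4% of genes were higher and 8.47% lower, and 2 had an unadjusted p under 0.05. Aldoa had 0.775 in E16.5 interstitial cells, against 2.19 and 2.20 at P0 (log2 fold change -0.97, SE 0.39, adjusted p = 0.060), and Pgk1 0.0674 from 2 UMIs, against 0.547 and 0.482 (-2.41, adjusted p = 0.056). As UMIs per 10000 and among the tested genes, the E16.5 value lay below both P0 values for Pfkl, Aldoa, Pgk1, Eno1, Pkm and Ldha. With library totals in place of edgeR's scaling, which moves the median of all genes from -0.10 to -0.63, Aldoa (-1.5), Pgk1 (-2.93) and Ldha (-1.10) were called lower at E16.5. In surface endothelial cells none was called, where 9.57% of genes were higher and 7.7% lower, and 0 had an unadjusted p under 0.05; the median was -0.11, against -0.22 over all genes.

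Capillary cells had 2 calls. Pgk1 was lower at E16.5, with 1 UMI (0.0520 per 10000), against 51 and 50 UMIs (1.11 and 1.59) at P0 (log2 fold change -3.85, SE 0.79, adjusted p = 7e-05). Aldoa was called higher, with 4.89 at E16.5, against 4.51 and 3.75 at P0 (1.01, SE 0.30, adjusted p = 0.0042), where 15.4% of genes were called higher and 12.3% lower. The Aldoa shares differed little and its call depends on the scaling: with library totals, under which the median of all genes was -1.01 and not -0.25, its log2 fold change was 0.24 (adjusted p = 0.524). DESeq2's Wald test called neither gene. Eno1 had 1.92, against 2.16 and 1.88 (log2 fold change 0.69), Pkm 3.43, against 4.03 and 3.88 (0.56), and Ldha 3.38, against 5.34 and 5.40 (0.10). None of these genes was called. For Pkm and Ldha the E16.5 share lay below both P0 shares, so the positive sign of their fold changes rests on edgeR's scaling.

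E9.5 and E16.5 are 1 library each, so their matched classes were set side by side without a test. In endocardial against surface endothelial cells the 7 genes with enough UMIs were all at least 2-fold higher at E9.5, where 49.5% of the genes compared were higher and 18.1% lower, with a median ratio of 6.76, against 1.96. In cushion-forming against interstitial cells they were 7 of 7 (51.2% of genes higher and 14.9% lower; median 9.88, against 2.07). In macrophages they were 5 of 5 (41.1% higher, 29.4% lower) and in cardiomyocytes 6 of 6 (39.1% higher, 27.2% lower). A gene passes the count minimum here through the stage where it is high, so the numbers describe the values only. Ldha had a ratio of 13.5 (9.39 to 20.2) and Tpi1 4.08 in the endothelial pair. Pgk1, with too few E16.5 UMIs for the set, had 0.440 at E9.5 and 0.405 at E16.5 in that pair, a ratio of 1.09 (0.480 to 3.04). The 10 E16.5 cardiomyocyte-like cells had 8.09 for Aldoa, 7.01 for Ldha and 1.08 for Slc2a1, the highest of the E16.5 classes for each.

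Glycolysis enzymes outside the set were also called higher at E9.5 than at P0. Of the other glycolysis enzymes, 3 of 5 tested were called higher at E9.5 than at P0 in both pairs of classes, and none lower. Counts of this and the following lists read against 24.6% of all genes called higher and 22.1% lower in the endothelial pair, and 16.6% higher and 19.9% lower in the mesenchymal pair. Pgam1, the mutase before enolase, had 8.29 in E9.5 endocardial cells, against 1.13 and 1.36 in P0 surface endothelial cells (2.65, SE 0.30, adjusted p = 5.8e-17), and 6.54 in cushion-forming cells, against 1.36 and 1.29 in interstitial cells (1.99). Gpi1 and Gapdh had 1.46 and 1.39 in the endothelial and 1.27 and 0.91 in the mesenchymal pair. The lactate exporter Slc16a3 had 1.24 in E9.5 endocardial cells, against 0.0996 and 0.176 at P0 (3.12), one of 3 of 8 genes of lactate and pyruvate handling called higher there. In the mesenchymal pair 1 of 8 was called higher, Slc16a3 (2.01), and 1 lower, Mpc1 (-1.16).

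Of the citric acid cycle genes, 8 of 12 were called higher in E9.5 endocardial and 6 of 12 in cushion-forming cells, with Idh3a at a log2 fold change of 2.01 in each pair. The pentose phosphate genes had 3 of 4 and 2 of 4 called higher. The MYC family gene Mycn was called higher in both pairs, with 1.08 in E9.5 cushion-forming cells, against 0 and 0.0536 in P0 interstitial cells, and 0.765 in endocardial cells, against 0 and 0.132 in surface endothelial cells. Among the oxygen-sensing genes, Egln3 and Epas1 were lower: Egln3 had 0.0398 in cushion-forming cells, against 2.01 and 2.20 in P0 interstitial cells, and Epas1 0.0860 in endocardial cells, against 1.29 and 0.834 in surface endothelial cells (-3.71, adjusted p = 1.4e-14). Of the tested genes of this list, 1 of 6 was called lower in the mesenchymal pair, near the 19.9% of all genes called lower, 2 of 4 were in the endothelial pair, against 22.1% of all genes, and none was called higher. Hypoxia-induced genes outside glycolysis had 2 of 9 higher in each pair, Mif and Fam162a, with 2 lower in the mesenchymal and 1 in the endothelial pair. These hypoxia-induced counts lie near or below the shares of all genes. Among genes of fatty acid uptake, Fabp4 had 0 UMIs in E9.5 endocardial cells, against 6.84 and 2.81 per 10000 at P0.

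Mif, a cytokine gene induced by hypoxia, was called higher at E16.5 than at P0 in each class tested. It had 17.7 in E16.5 interstitial cells, against 4.04 and 6.70 at P0 (2.29, adjusted p = 1.2e-22), 13.5 in capillary cells, against 4.75 and 4.42 (2.33), and 8.71 in surface endothelial cells, against 3.39 and 4.30 (1.64). Higd1a was also called higher in all 3 classes, with log2 fold changes of 1.73, 1.92 and 1.23. Mif belongs to the hypoxia-induced genes outside glycolysis, of which 9 were tested in each class and most were not called. The fold changes carry edgeR's scaling, with a median of all genes in capillary cells of -0.25, against -1.01 with library totals. Within the valve, Egln3 was called higher in interstitial than in surface endothelial cells (4.27, adjusted p = 0.00048), with 0.640, 2.01 and 2.20 in interstitial cells, against 0, 0.133 and 0.0878 in surface endothelial cells. None of the 3 other glycolysis enzymes tested was called there or in capillary cells.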

How the data were processed

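Per the labels' protocols, tissue was digested for 5 or 10 min, sorted on tomato and sequenced as 3' tags with 57-nt reads. The deposited values are whole-number UMI counts per gene and cell, made by the authors with Cell Ranger 2.1.1 on mm10 per the submitters' processing notes, with no normalization; further settings are not stated in the labels. The other deposited files give, per the file contents, gene identifiers with symbols and barcode lists, which other than the symbols were not used because those of the P0 libraries were exchanged. The P0 lists shared 4 barcodes. Cells with under 500 genes, over 10% mitochondrial UMIs or a scrublet doublet call (5, 6, 1 and 5 cells) were left out, taking the deposited 1206, 452, 291 and 211 cells to 1194, 311, 282 and 173. Clustering used scanpy 1.11.5 within a library (Python 3.11.15; 2000 variable genes, 20 components, Leiden resolution 1.0) without the 10 genes and the pathway lists, and clusters were named from at least 3 markers. Single-library comparisons needed 10 UMIs observed or expected on each side and a 2-fold difference, with no test; ratio intervals are exact conditional binomial intervals at 95%. Replicated sums per class and library were tested with edgeR 4.0.16 (R 4.3.3; TMM, filterByExpr, quasi-likelihood test, Benjamini-Hochberg over all genes, threshold 0.05); in stage comparisons a call also needed the single library above, or below, each P0 library. DESeq2 1.42.0 and other settings were alternatives, and the fits were tested on simulated data. The 10 genes and all lists were chosen with earlier results of these data known. Named were the 10 genes, per list up to 4 with the largest change past the threshold, and the 5 genes most like the sum; 2 genes that this rule names are not reported here.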

Additional observations from a re-analysis of the deposited data

Results flagged for a closer look

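The difference between E9.5 and P0 itself differed between the lineages for Eno1 and Ldha. The log2 excess of E9.5 over P0 was larger in endocardial against surface endothelial cells than in cushion-forming against interstitial cells by 1.32 for Eno1 (adjusted p = 0.0263) and by 1.03 for Ldha (adjusted p = 0.034), in edgeR's quasi-likelihood test of the class-by-stage term. The Eno1 counts may be shared with Eno1b, and the spread comes from the P0 pair alone.

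Between E16.5 and P0 some genes lay on opposite sides in different valve classes, with the E16.5 value above both P0 libraries in one class and below both in the other after scaling. As UMIs per 10000 this held for Aldoa alone. Capillary Ldha had 3.38 at E16.5, below the 5.34 and 5.40 of P0. Eno1 lay between its P0 values, with 1.92 against 2.16 and 1.88 in capillary cells and 1.21 against 1.23 and 1.05 in surface endothelial cells. The Aldoa difference was larger in capillary than in interstitial cells by 1.98 on the log2 scale and than in surface endothelial cells by 1.35. For Eno1 the interstitial value lay below that of surface endothelial cells by 0.85 and below that of capillary cells by 1.00, and for Ldha below that of capillary cells by 0.68. In the class-by-stage fit over 6471 genes none of these differences passed adjustment by edgeR's quasi-likelihood test: the smallest adjusted p was 0.138, for Aldoa between capillary and interstitial cells, with an estimate of 1.89 (SE 0.46). No group held 4 or more libraries, so no library was tested against the others of its group.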

How the results depend on the processing

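Of 686 values of single genes under alternative settings, 17 lost a call, 13 gained one and 16 without a test moved by more than the spread. With a call in the main or the alternative setting, 0 changed sign, and 640 values were counted as unchanged. A change of sign without a call was also counted as unchanged. Pgk1 in capillary against surface endothelial cells, for example, ran from -0.62 to 0.40 with a library left out. The cause of the changes was not tested. Counts of the 10 genes called moved as follows. Interstitial against surface endothelial cells had 1 call, but 2 with no filter on low counts, 2 with cells of at least 1000 genes, 0 without the cycling interstitial clusters, where Pfkl was not tested, and 0 to 1 with a library left out. Capillary against surface endothelial cells had 0, but 1 (Ldha) with pathway genes in the clustering, with cells of at least 1000 genes or at resolution 1.5, and macrophages had 0, but 1 with no filter. E16.5 against P0 in interstitial cells had 0, but 3 with library totals, 1 with cells of at least 1000 genes, and, chosen after seeing the data, 2 without cycling clusters and 2 with unnamed clusters that carry interstitial markers. In capillary cells it had 2, but 1 with library totals, 0 with DESeq2, 1 with no filter and 0 at resolution 1.5, and the median of 0.10 became -0.67, -0.51 (no filter) and -0.066 (at least 1000 genes). E9.5 against P0 had 7 calls in cushion-forming cells, but 3 with DESeq2 and 4 with pathway genes in the clustering, and 8 in endocardial cells, but 5 with DESeq2.

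Counts past 2-fold at E9.5 were 4 in canal-type cardiomyocytes, but 2 without globin, 2 without ribosomal protein and mitochondrial genes, 0 with pathway genes in the clustering and 0 at resolution 1.5. They were 1 in subtype-less cardiomyocytes, but 0 without globin, 0 as a mean over cells, 3 with pathway genes and 6 at resolution 1.5, and 1 in chamber-type cells, but 0 without globin. Pharyngeal-type mesenchyme had 2, but 3 without ribosomal protein and mitochondrial genes and 3 with pathway genes; posterior heart field had 1, but 2 as a mean over cells; (pro)epicardial cells had 0, but 1 as a mean over cells; canal-type against ventricular-type had 0, but 1 at resolution 1.5. Without ribosomal protein and mitochondrial genes the E16.5 sums were 23.9 in capillary, 41.7 in cardiomyocyte-like, 15.7 in surface endothelial, 10.5 in interstitial cells, 13.8 in macrophages and 11.8 in pericytes, and the P0 means 25.7 in capillary, 18.3 in surface endothelial and 17.1 in interstitial cells; the P0 capillary mean over cells was 18.1.

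All-gene calls also moved: E9.5 against P0 had 2173 in cushion-forming and 2545 in endocardial cells, but 474 and 467 with DESeq2; capillary against surface endothelial cells had 268, but 9 without the library block. Depth limits the valve: Slc2a3 and Hk2 could not be tested there and Slc2a1 rested on 1 to 8 UMIs per endothelial or interstitial class. Pericytes could not be compared with interstitial cells because they were named only at E16.5. No paired analysis was possible because, between stages, each stage but P0 had a single library; comparisons of classes within the valve kept the library as a block.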
